A study of Capra hircus with 36 samples.

Results

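The kidney libraries are 6 of the 36 small RNA libraries of a study of goats from high and low altitude. They were chosen by their tissue label, with both altitudes kept, and were set against the 30 libraries of heart, liver, lung, muscle and spleen. Tibetan Goat from 3000 m and Chuandong White Goat from 600 m were sampled, all of them females of about 3 years. Each population gave 3 goats and each goat gave all 6 tissues, so breed and altitude cannot be told apart, while the kidney and the other tissues came from the same animals. The comparison asks which miRNAs are enriched in or depleted from kidney, and which tissue comes next.

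A miRNA is a short RNA processed from a hairpin precursor, and either arm of the hairpin can give a mature miRNA. It guides Argonaute proteins to messenger RNAs with matching sites and lowers their translation and stability. The kidney is built largely of epithelial tubules that reabsorb the filtrate of the glomeruli, with vessels and connective tissue between them, and its cells keep a record of their place along the body axis in the HOX genes they express.

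The deposited values were counts of reads for 1391 mature miRNAs. The kidney libraries held 9643978 to 11265856 counts, within the range of 7108635 to 14407748 over all 36 libraries. Levels are given as RPM, which are reads scaled to a library total of 1000000. In the kidney libraries 3 counts, the limit that a count of 0 allows, equal 0.266 to 0.311 RPM. A miRNA is called higher or lower here when the Benjamini-Hochberg adjusted p of edgeR was under 0.05 and the log2 fold change was at least 1.5 in size, and fold changes are kidney minus the mean of the other 5 tissues unless another tissue is named.

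The kidney label was checked against chi-miR-10b-5p, a miRNA encoded among the HOX genes, and chi-miR-200a-3p, a miRNA of epithelial cells that holds down the ZEB repressors of E-cadherin. chi-miR-10b-5p was the most abundant miRNA of all 6 kidney libraries, at a lowest, median and highest level of 164936, 354688 and 401762 RPM. These values lay above 29 of the 30 other libraries, and the exception was a muscle library at 203782 RPM. chi-miR-200a-3p stood at 653, 1121 and 3777 RPM in kidney and also lay above 29 of the 30 others, the exception being a lung library at 1221 RPM. Both markers were therefore high in every library labelled kidney.

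Among the kidney libraries, high-altitude library 2 and low-altitude library 3 held the smallest shares of chi-miR-10b-5p. It took 21.4% and 16.5% of their counts, and 31.3% to 40.2% in the other 4. Their 10 most abundant miRNAs held 72.7% and 72.1% of counts, against 77.3% to 86.9% in the other 4. Muscle low-altitude library 3 held 25949 RPM of chi-miR-381-3p and 15762 RPM of chi-miR-411a-5p, both from the imprinted DLK1-DIO3 locus. The medians of the 6 muscle libraries were 494 RPM and 775 RPM for this pair. The main counts are also given without muscle low-altitude library 3, and without all libraries of high-altitude goat 2 and low-altitude goat 3.

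A small set of miRNAs made up most of the kidney counts. chi-miR-10b-5p averaged 314594 ± 103758 RPM (SD, n = 6), followed by chi-miR-30a-5p at 93544 RPM, chi-miR-10a-5p at 93045 RPM and chi-miR-26a-5p at 91865 RPM. chi-miR-143-3p, known from smooth muscle, came next at 83194 RPM, then chi-miR-30d-5p at 34520 RPM and chi-miR-22-3p at 24286 RPM. chi-miR-125a-5p at 21040 RPM, chi-miR-27b-3p at 19928 RPM and chi-miR-30e-5p at 13446 RPM completed the 10 with the highest means. Of these 10, chi-miR-10b-5p, chi-miR-10a-5p, chi-miR-30a-5p and chi-miR-30d-5p were called higher in kidney than in the other tissues. The other 6 were not called. chi-miR-143-3p was at a mean of 420675 RPM in spleen and chi-miR-26a-5p at 173832 RPM in lung, both above their kidney means.

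The 10 most abundant miRNAs of each library held 72.1%, 81.8% and 86.9% of the kidney counts (lowest, median and highest). Set against the mean of the other 5 tissues of the same goat, the kidney share was 6.26 percentage points higher on average and was higher in 5 of 6 goats (exact two-sided permutation test over the 6 goats, p = 0.06250). The share of the most abundant miRNA alone was 6.43 points higher, with 4 of 6 goats in that direction (exact permutation test, p = 0.18750). The number of miRNAs with reads ran from 540 to 613 in kidney and was lower by a mean of -9.6 as kidney minus the rest, with 3 goats on either side (exact permutation test, p = 0.40625). None of the 3 shares or numbers passed, and 0.03125 is the smallest p that this design can give.

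Against the mean of the other 5 tissues, 141 of the 1391 miRNAs tested (10.1%) were called higher in kidney and 32 (2.3%) lower. The enriched miRNAs came mainly from the HOX loci, the miR-200 family, the miR-30 family, a cluster of chi-miR-424-5p, chi-miR-450-5p and chi-miR-542-3p, and the DLK1-DIO3 locus. The depleted miRNAs included some of those of striated muscle and of ciliated cells, and chi-miR-150-5p of leukocytes. In bulk tissue, fewer cells of a type and less RNA per cell cannot be told apart. Of the 141 enriched miRNAs, 46 reached a mean of at least 100 RPM in at least 1 tissue, while 61 stayed under 10 RPM in all tissues. Kidney was the highest of the 6 tissues for 98 of the 141. The tissue that came next, or that exceeded kidney, was liver for 42, muscle for 34, lung for 28, spleen for 22 and heart for 10, and the other 5 were at 0 in all 30 other libraries. In all, 27 tested miRNAs were at 0 in those 30. They passed the minimum of 3 reads through kidney alone, so they could not come out lower. The order of the next tissues rests on tissue means, and muscle low-altitude library 3 raised those of muscle for the DLK1-DIO3 locus. Its summed level of that locus was 69174 RPM, against at most 4581 RPM in the other muscle libraries. Of the 32 depleted miRNAs, 20 reached 100 RPM in at least 1 tissue, and kidney was the lowest tissue for 20. DESeq2 called 110 higher and 65 lower, of which 99 and 32 were also called by edgeR. Without the libraries of high-altitude goat 2 and low-altitude goat 3, 118 were higher and 29 lower, 104 and 22 of them shared with the full set. Without muscle low-altitude library 3, 157 were higher and 27 lower, 141 and 27 of them shared. In high-altitude goats alone 88 were higher and 18 lower, and in low-altitude goats alone 102 and 18, with 63 higher and 9 lower in both.

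**Figure D1:**
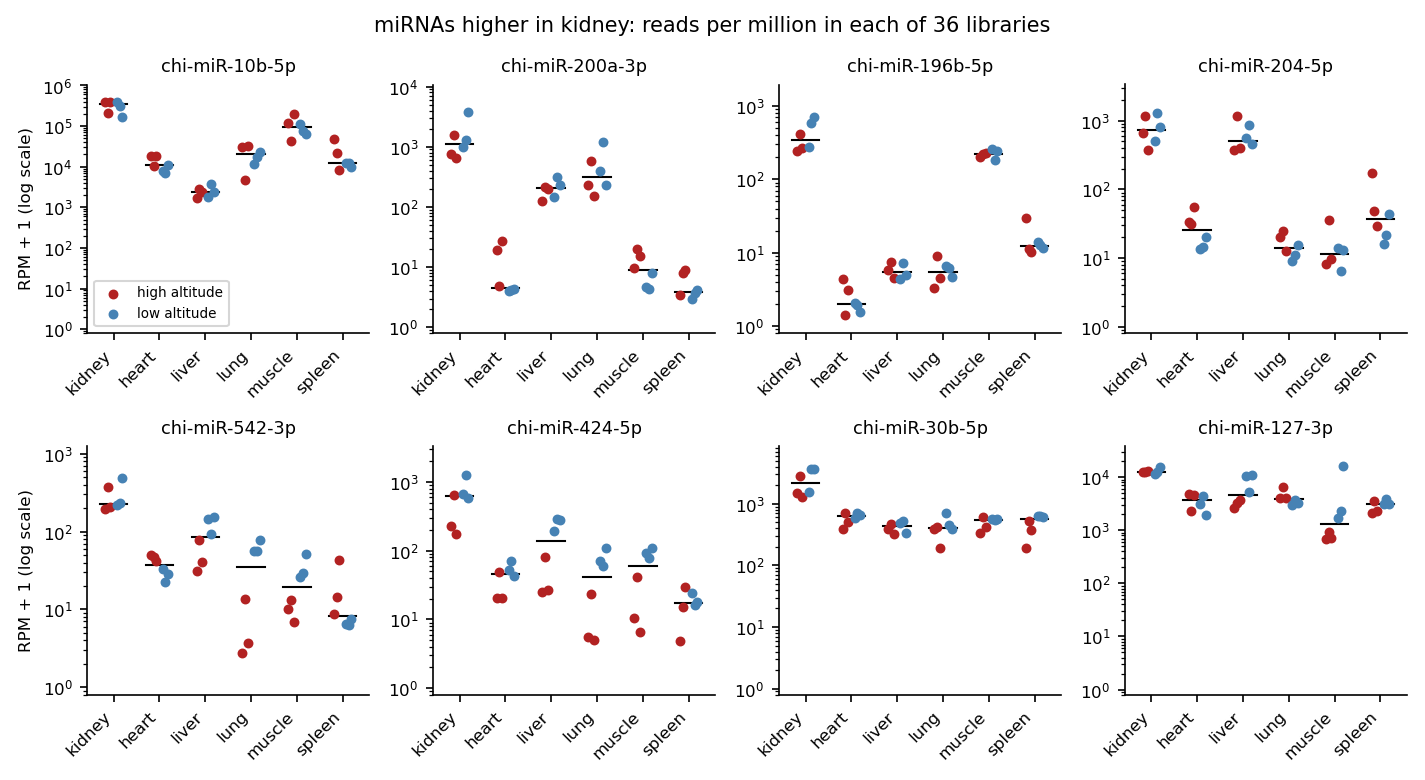
RPM plus 1 on a log scale for 8 miRNAs called higher in kidney, in each of the 36 libraries, with high-altitude libraries in red, low-altitude libraries in blue and a line at the median of each tissue. The 6 kidney values of chi-miR-542-3p and chi-miR-30b-5p lie above all 30 others, while muscle comes near kidney for chi-miR-10b-5p and chi-miR-196b-5p and liver for chi-miR-204-5p.

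The HOX loci hold miRNA genes between the genes that set position along the body axis, and their products include regulators of HOX messenger RNAs. Of 12 tested miRNAs of this group 10 were higher in kidney (9 by DESeq2) and none lower, with a median log2 fold change of 3.85, beside -0.38 over all 1391 miRNAs. Their summed level ran from 221748 to 514008 RPM in kidney, with the lowest value in low-altitude library 3, and averaged 124371 RPM in lung, the next tissue. chi-miR-10b-5p was higher by 4.58 ± 0.33 on the log2 scale (SE, edgeR adjusted p = 4.39e-12). Muscle came next for it at 41844, 93444 and 203782 RPM, and the kidney mean was 3.05 times the muscle mean. The kidney and muscle values of chi-miR-10b-5p overlapped. Against muscle alone its log2 fold change was 1.05 ± 0.53 and was not called (edgeR adjusted p = 0.231), whereas scaling by library size alone gave 1.63 ± 0.41 and a call. The scaling factors of the muscle libraries were low, 0.446 to 0.855, against 0.550 to 1.53 in kidney, so the distance between these tissues depended on how libraries were scaled.

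The close relative chi-miR-10a-5p stood at 55599, 107836 and 114526 RPM in kidney and at 42157, 69737 and 205461 RPM in lung. Kidney and lung overlapped, and the kidney values lay above 27 of the 30 other libraries. Kidney had a log2 fold change of 4.09 ± 0.33 against the other 5 tissues (edgeR adjusted p = 3.96e-11) and 0.56 against lung, which was not called. chi-miR-196b-5p, from the HOXA genes, was at 241, 341 and 717 RPM in kidney and at 181, 224 and 260 RPM in muscle. These overlapped too, and all 24 libraries of the other tissues lay far lower, with the highest tissue mean among them at 13.8 RPM in spleen. The log2 fold change was 5.36 ± 0.25 (edgeR adjusted p = 1.01e-16), and against muscle it was 0.05. chi-miR-196a-5p, from the HOXB genes, was likewise higher against the other 5 tissues, by 3.35, but it was lower than in muscle by a log2 fold change of -1.73 (edgeR adjusted p = 0.0268), a call that was lost with library size alone (-0.85), with chi-miR-10b-5p left out of the scaling (-1.35) and without muscle low-altitude library 3 (-1.40). Kidney and muscle thus shared high chi-miR-10b-5p, chi-miR-196a-5p and chi-miR-196b-5p, and kidney and lung shared chi-miR-10a-5p.

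The miR-200 family, which keeps cells epithelial by lowering ZEB1 and ZEB2, was called higher in kidney for all 9 of its 9 tested miRNAs, with a median log2 fold change of 4.11. Its summed level was 1477 to 8139 RPM in kidney and averaged 8399 RPM in lung, 1160 RPM in liver and under 100 RPM in heart, muscle and spleen. chi-miR-200a-3p was higher by 5.58 ± 0.24 (SE, edgeR adjusted p = 3.73e-17), and it was called against each of the 5 tissues. Lung came next for it at 154, 310 and 1221 RPM, and the kidney mean was 3.21 times the lung mean. The ranges of kidney and lung overlapped because of a single lung library. chi-miR-429-3p stood at 114, 170 and 392 RPM in kidney and was higher by 4.94 ± 0.34 (edgeR adjusted p = 1.47e-12), with lung next at 75.8, 151 and 285 RPM. It overlapped with lung, against which its log2 fold change was 0.98 and not called.

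chi-miR-141-3p and chi-miR-200c-3p, the family members of the other gene cluster, were higher in kidney than in the mean of the other tissues but lower than in lung. chi-miR-141-3p was at 547, 837 and 1282 RPM in kidney and at 2961, 6373 and 10705 RPM in lung, with no overlap. Its log2 fold change was 3.69 ± 0.30 against the other 5 tissues (edgeR adjusted p = 3.96e-11) and -2.36 against lung. chi-miR-200c-3p was at 14.2, 41.5 and 130 RPM in kidney, all below the 261 to 706 RPM of lung, and its log2 fold change was 3.22 against the other 5 tissues, a call that was lost in high-altitude goats alone (1.78), and -2.87 against lung. chi-miR-200b-3p had counts in kidney high-altitude library 2 (3023 RPM) and low-altitude library 3 (2896 RPM) and 0 in the other 4. Its call (log2 fold change 4.49, edgeR adjusted p = 0.00998) was lost without either library (-3.30 and -3.27) with goat as a block (3.21) and in high-altitude goats alone (4.14), and without both goats the value was -9.56. Without these 2 goats 6 of the 9 miRNAs of the family were called, 6 with goat as a block, 8 by DESeq2, 5 in high-altitude goats alone and 8 in low-altitude goats alone.

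Among miRNAs known from the tubule, chi-miR-204-5p, which lies within the ion channel gene TRPM3, was at 379, 735 and 1298 RPM in kidney. Liver came next at 380, 508 and 1175 RPM, and the ranges of both tissues almost coincided. Against the mean of the other tissues the log2 fold change was 4.29 ± 0.26 (SE, edgeR adjusted p = 1.25e-13), and 0.76 against liver, which was not called. conserve-chi-miR-203-3p, an epithelial miRNA best known from skin, was higher by 2.73 in kidney, lost its call in high-altitude goats alone (1.73) and had its highest mean in liver, 160 RPM against 47.6 RPM. Of the 26 tested miRNAs of this group edgeR called 4 higher and none lower, beside 141 of 1391 (10.1%) higher over all miRNAs. The group as a whole is therefore not read as enriched. DESeq2 called 4 higher and 1 lower, and 2 of 25 were higher in high-altitude goats alone. The median log2 fold change was -0.03 (-0.21 by DESeq2 and 0.17 in low-altitude goats alone). chi-miR-146b-5p (-0.89), chi-miR-335-5p (1.24), chi-miR-335-3p (0.58), chi-miR-455-5p (-0.01) and chi-miR-455-3p (-0.31) were not called, although chi-miR-335-5p was called without high-altitude goat 2 (1.54).

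The miR-192 and miR-194 group, known from kidney, liver and gut, had 3 of its 4 tested miRNAs higher, with a median log2 fold change of 2.25. chi-miR-194-5p was at 1192, 2112 and 4518 RPM in kidney and at 11198, 16346 and 22911 RPM in liver. Liver lay wholly above kidney, and kidney wholly above the libraries of the other 4 tissues. Kidney had a log2 fold change of 2.57 ± 0.17 against the other 5 tissues (edgeR adjusted p = 6.26e-13) and -2.40 against liver. chi-miR-215-5p varied widely in kidney, at 21.3, 220 and 1126 RPM, and was higher by 1.94 (edgeR adjusted p = 0.00462), a call that was lost without high-altitude goat 2 and low-altitude goat 3 (1.77) and in low-altitude goats alone (0.82). Of the miR-183 cluster, known from sensory epithelia, 3 of 4 tested miRNAs were higher, but none of the 4 was called in high-altitude goats alone, where chi-miR-182-5p had 1.70 and chi-miR-183-5p 1.97. chi-miR-182-5p (2.06) and chi-miR-183-5p (2.62) had their highest means in lung, at 353 and 116 RPM against 93.5 and 19.7 RPM in kidney. Against lung neither was called, but both were lower by DESeq2 (-1.58 and -1.98) and with library size alone (-1.80 and -2.32).

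The miR-30 family is abundant in podocytes and tubules. Of its 12 tested miRNAs edgeR called 5 higher and none lower, with a median log2 fold change of 1.38, and DESeq2 called 6 higher and 1 lower. chi-miR-30b-5p was at 1293, 2203 and 3717 RPM in kidney and at most 708 RPM in any of the 30 other libraries. The groups did not overlap, and heart came next at 392, 623 and 708 RPM. The log2 fold change was 2.31 ± 0.16 against the other 5 tissues (edgeR adjusted p = 2.62e-12) and 1.61 ± 0.25 against heart (edgeR adjusted p = 1.7e-05). Against muscle it was 1.44, under the minimum fold change. chi-miR-30a-5p, the most abundant member, was at 84372, 92513 and 105120 RPM in kidney and at 54846, 70854 and 95579 RPM in liver. These overlapped, and the log2 fold change was 2.06 ± 0.22 against the other 5 tissues (edgeR adjusted p = 2.77e-08) and 0.86 against liver, not called. chi-miR-30d-5p (1.71, heart next) and chi-miR-30f-5p (3.09, heart next) were also higher. chi-miR-30e-5p, which had its highest level in heart, had a log2 fold change of -0.04 and was not called. Among the other arms, chi-miR-30a-3p (-4.03, and 2.09 with both arms summed) and chi-miR-30e-3p (-1.14) had negative values without a call, and chi-miR-30a-3p was called lower by DESeq2 (-4.21) and chi-miR-30e-3p without high-altitude goat 2 and low-altitude goat 3 (-1.57).

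chi-miR-30c-5p was at 0 in 14 of the 30 other libraries. It was at 1216, 1577 and 4209 RPM in kidney and at 0, 3141 and 3864 RPM in heart, the tissue with the highest mean. It was called with a log2 fold change of 5.05 ± 1.34 (edgeR adjusted p = 0.00798). The call was lost with goat as a block (3.62), with tissue alone (2.45) and in high-altitude goats alone (4.94). Against heart its value was -0.41, and 8.12 with a call without high-altitude goat 2 and low-altitude goat 3. Whether these counts of 0 are biological was not tested.

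Neighbouring miRNA genes gave another enriched group. chi-miR-424-5p, known for blocking cell cycle genes, was at 175, 617 and 1271 RPM in kidney and at 23.6, 137 and 286 RPM in liver, the next tissue. Kidney lay above 27 of the 30 other libraries, and the log2 fold change was 3.93 ± 0.26 (SE, edgeR adjusted p = 9.19e-13). chi-miR-542-3p was at 197, 225 and 485 RPM in kidney and at 29.8, 83.6 and 152 RPM in liver. All 6 kidney values lay above all 30 others, with a log2 fold change of 3.57 ± 0.22 (edgeR adjusted p = 1.39e-13), and 2.24 ± 0.36 against liver (edgeR adjusted p = 3.54e-05). chi-miR-450-5p was at 152, 348 and 574 RPM in kidney, above all 6 libraries of heart, the next tissue, and above 29 of 30 others. On the log2 scale kidney was higher by 3.56 ± 0.78 (edgeR adjusted p = 0.00105), but against heart alone its value of 2.35 was not called. The call against the other 5 tissues was lost in low-altitude goats alone (3.71). chi-miR-504-5p, which lies within the growth factor gene FGF13 and is known to target p53, was at 32.0, 134 and 462 RPM in kidney and at 32.0, 73.3 and 132 RPM in heart. It overlapped with heart, and its log2 fold change was 3.71 ± 0.31 against the other 5 tissues (edgeR adjusted p = 1.01e-10) and 0.67 against heart, which was not called.

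The DLK1-DIO3 locus carries a very large miRNA cluster of placental mammals, expressed from the maternal chromosome. Of 92 tested miRNAs listed for it 46 were higher in kidney and 1 lower, with a median log2 fold change of 1.83. The list does not hold chi-miR-3959-3p and 4 more miRNAs of the locus. Of the 14 listed miRNAs with at least 100 RPM in a tissue, 12 were higher, beside 46 of all 208 tested miRNAs at that level. Their summed level was 16411 to 27451 RPM in kidney, and the tissue with the next mean was muscle at 13848 RPM, raised by muscle low-altitude library 3 at 69174 RPM. chi-miR-127-3p, encoded opposite the retrotransposon-derived gene RTL1, carried most of the kidney sum. It was at 11569, 12662 and 15453 RPM in kidney and at 2616, 4532 and 10903 RPM in liver. Kidney lay above 29 of the 30 others, the exception being muscle low-altitude library 3 at 16553 RPM. The log2 fold change was 2.07 ± 0.24 (SE, edgeR adjusted p = 1.22e-07), and it was called against each of the 5 tissues. With library size alone its value against liver was 1.28, under the minimum fold change.

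Further members of the DLK1-DIO3 locus were higher too. chi-miR-136-5p (2.18), chi-miR-136-3p (1.87), chi-miR-379-5p (2.55), chi-miR-380-3p (1.65), chi-miR-409-3p (2.12) and chi-miR-410-3p (1.67) were each called, and lung, liver, spleen or muscle came next. The call of chi-miR-380-3p was lost with RLE size factors and by DESeq2 (1.48 in both) and with tissue alone (1.49). That of chi-miR-410-3p was lost with tissue alone (1.47) and in low-altitude goats alone (1.43), and that of chi-miR-379-5p in high-altitude goats alone (2.48). chi-miR-411a-3p (2.05), chi-miR-369-3p (1.68) and chi-miR-655-3p (1.68) were called as well. chi-miR-411a-3p lost its call with arms summed (1.25), with tissue alone (1.61) and in low-altitude goats alone (2.11), and chi-miR-369-3p in low-altitude goats alone (1.41) and without kidney high-altitude library 2 (1.43). chi-miR-655-3p lost it in 7 alternatives, with values of 1.11 to 1.49, among them low-altitude goats alone (1.11) and leaving out kidney high-altitude library 1 (1.49). chi-miR-411a-5p (1.20) and chi-miR-381-3p (0.57) were not called, although chi-miR-411a-5p was without muscle low-altitude library 3 (1.55). That library stood out by its high levels of both. Against muscle, chi-miR-136-3p (0.72), chi-miR-369-3p (0.96), chi-miR-380-3p (0.89), chi-miR-411a-3p (0.53), chi-miR-655-3p (0.40) and chi-miR-410-3p (0.15) were not called. Nor were chi-miR-379-5p against lung (0.25, and -0.46 with goat as a block) and chi-miR-409-3p against liver (0.80). Because muscle low-altitude library 3 was singled out by its high levels of this locus, leaving it out lowers the muscle side. Calls gained in that way are no separate support. Without it each of those set against muscle was called. chi-miR-136-3p was then at 1.98, chi-miR-369-3p at 2.77 and the others at 1.63 to 3.21. Leaving out high-altitude goat 2 and low-altitude goat 3 also removes that muscle library. All but chi-miR-410-3p (1.38) were then called against muscle, with chi-miR-136-3p at 1.94 and chi-miR-369-3p at 2.16. Without muscle low-altitude library 3, 55 of 91 tested miRNAs listed for the locus were higher. Without high-altitude goat 2 and low-altitude goat 3, 39 of 89 were higher, DESeq2 called 33 and goat as a block gave 37. In high-altitude goats alone 26 of 84 were higher and in low-altitude goats alone 24 of 88. chi-miR-409-5p split by altitude in kidney, at 17.2, 12.4 and 24.3 RPM in the high-altitude goats and 859, 526 and 133 RPM in the low-altitude goats. The difference was not called. chi-miR-376c-3p was at 0, 16.0 and 313 RPM in kidney and at 0 in most other libraries, with at most 34.8 RPM in lung. Its call was lost without kidney high-altitude library 2 (3.78), without high-altitude goat 2 (4.59) and without this goat and low-altitude goat 3 (4.08).

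The strictest comparison asks which miRNAs were called in the same direction against each of the 5 tissues. 15 of 1391 (1.08%) were higher in kidney than in every other tissue, and 9 of these reached 100 RPM in at least 1 tissue. Next to chi-miR-200a-3p, chi-miR-424-5p, chi-miR-542-3p, chi-miR-127-3p, chi-miR-136-5p and chi-miR-409-5p, already described, they were chi-miR-9-5p, chi-miR-874-3p and chi-miR-3959-3p, chosen for naming after their values were seen. chi-miR-9-5p, best known from neural progenitors, was at 124, 229 and 401 RPM in kidney, above 28 of the 30 others, with lung next and a single lung library at 666 RPM. Kidney had a log2 fold change of 3.00 ± 0.30 (SE, edgeR adjusted p = 4.26e-09). chi-miR-874-3p, which lies within KLHL3, a gene of the regulation of salt transport in the distal tubule, was at 90.7, 192 and 356 RPM in kidney and at 24.5, 71.2 and 260 RPM in spleen. The log2 fold change was 2.56 ± 0.33 (edgeR adjusted p = 5.5e-07), and the other arm, chi-miR-874-5p, was higher than in every tissue as well.

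The remaining members of the 15 were scarce. conserve-chi-miR-450b-3p was at 30.0, 46.3 and 117 RPM in kidney and had liver next. conserve-chi-miR-516b-5p (1.21 to 5.18 RPM in kidney) and conserve-chi-miR-7407-3p (0.202 to 3.06 RPM) were at 0 in all 30 other libraries. chi-miR-376e-3p (0 to 277 RPM in kidney) and chi-miR-376e-5p (0 to 4.24 RPM) were also at 0 in all 30 others, so no next tissue exists for these 4 and no fold is given. They too were named after their values were seen. These 4 entered the test through kidney reads alone and could not come out lower, although they are part of the 15. Library size alone gave 10 in place of 15, and the call of chi-miR-409-5p against liver was lost with RLE size factors (1.60), with library size alone (0.98) and with goat as a block (1.40). That of chi-miR-136-5p against spleen was lost with library size alone (1.48). Leaving out low-altitude goat 1 gave 8 and leaving out low-altitude goat 2 gave 6.

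All 6 kidney values lay above all 30 others for 6 of 1391 miRNAs (0.431%), and all of them were called higher. They were chi-miR-30b-5p and chi-miR-542-3p, with at least 100 RPM in kidney, and chi-miR-135b-5p, conserve-chi-miR-496-3p, conserve-chi-miR-516b-5p and conserve-chi-miR-7407-3p, which were scarcer and were named after their values were seen. The lowest kidney value of conserve-chi-miR-7407-3p, 0.202 RPM, was under the limit of a count of 0. Its order against libraries at 0 is therefore uncertain. Both it and conserve-chi-miR-516b-5p were tested through kidney reads alone. chi-miR-135b-5p was at 14.7, 25.8 and 74.8 RPM in kidney and at most 13.1 RPM elsewhere, with liver next. The reverse, all 6 kidney values below all 30 others, held for 0 of 1391 miRNAs (0%). This is a count of ranges and not of a test.

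The counts against single tissues moved with the scaling, and no order among the tissues is drawn from them. Against heart 105 miRNAs (7.55%) were higher and 70 (5.03%) lower, and against spleen 117 (8.41%) were higher and 67 (4.82%) lower. Against lung 97 (6.97%) were higher and 67 (4.82%) lower, against muscle 89 (6.4%) and 73 (5.25%), and against liver 77 (5.54%) and 49 (3.52%). chi-miR-10b-5p separated kidney from liver by a log2 fold change of 7.70 and from lung, heart and spleen by 4.61, 4.71 and 4.83. chi-miR-200a-3p separated it from spleen by 8.84, from heart by 7.17 and from muscle by 6.64. With library size alone, 143 were higher and 47 lower than in muscle. These comparisons share the kidney libraries and were not tested against each other. The counts against liver and lung moved with single goats. Lower than in liver were 30 without high-altitude goat 1 or low-altitude goat 1, 31 without high-altitude goat 2 and 32 without kidney high-altitude library 3. Lower than in lung were 38 to 42 without any 1 of high-altitude goat 2, high-altitude goat 3 or the 3 low-altitude goats, and 39 without kidney low-altitude library 3. Without high-altitude goat 1, 63 were higher than in lung and 34 lower than in spleen, and without low-altitude goat 1, 46 were higher than in liver.

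**Figure D2:**
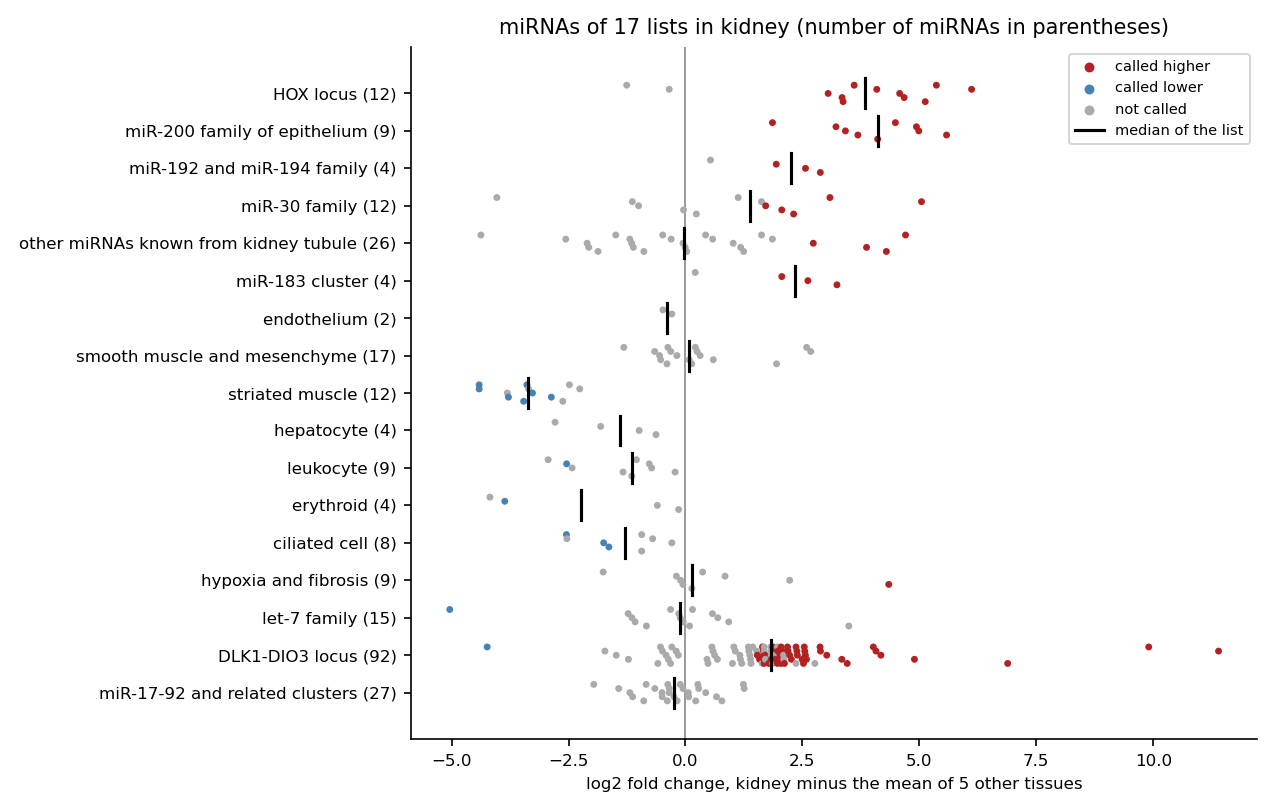
Log2 fold change, kidney minus the mean of the other 5 tissues, of each tested miRNA of 17 groups, with red points called higher, blue points called lower, gray points not called and a black line at the median of each group. The HOX, miR-200 and DLK1-DIO3 groups lie mainly to the right of 0 and the striated muscle group to the left.

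Several miRNAs of heart and skeletal muscle were depleted from kidney. chi-miR-133b-5p had the same counts as chi-miR-133a-3p in all 36 libraries, and the pair is counted once here. Of 11 tested miRNAs known from striated muscle 6 were then lower in kidney and none higher, with a median log2 fold change of -3.35. With both names counted, 7 of 12 were lower, 10 by DESeq2, 5 in high-altitude goats alone and 6 in low-altitude goats alone. chi-miR-133a-3p, which restrains the growth of cardiac and skeletal muscle, was at 79.9, 462 and 1026 RPM in kidney and at 178996, 240838 and 276291 RPM in muscle. Kidney lay below 24 of the 30 others, and its highest value was below every heart and muscle library. The log2 fold change was -4.41 ± 0.47 (SE, edgeR adjusted p = 2.12e-08), and -9.97 against muscle and -8.57 against heart. Against lung it was 0.09 and was not called.

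The miRNAs encoded in myosin genes followed. chi-miR-208b-3p, from a slow myosin heavy chain gene, was at 1.11, 13.0 and 32.2 RPM in kidney and at 10283, 12824 and 16711 RPM in heart. The groups did not overlap, and the log2 fold change was -3.78 ± 0.67 (edgeR adjusted p = 7.47e-05). chi-miR-499-5p, which lies within MYH7B, was at 2.94, 22.9 and 159 RPM in kidney and at 5178, 7120 and 7615 RPM in heart. Its log2 fold change was -2.87 ± 0.56 (edgeR adjusted p = 0.000266), and in high-altitude goats alone the call was lost (-1.76). chi-miR-1-3p, the other main miRNA of muscle differentiation, was at 7.36, 25.9 and 57.7 RPM in kidney and at 1070, 1231 and 57972 RPM in muscle. It was lower by -3.27 ± 0.88 (edgeR adjusted p = 0.00724), and neither high-altitude (-3.58) nor low-altitude goats alone (-2.89) gave a call. chi-miR-133a-5p (-3.46) and chi-miR-499-3p (-3.39) were also lower, while chi-miR-206-3p (-2.62), found mainly in skeletal muscle, was not called. It was called with goat as a block (-2.92), by DESeq2 (-2.76) and without high-altitude goat 2 and low-altitude goat 3 (-1.96). conserve-chi-miR-95-3p, outside this group, was at 0.718, 2.05 and 5.92 RPM in kidney and at 69.4, 120 and 208 RPM in heart, and was lower by -2.78 ± 0.39 (edgeR adjusted p = 2.26e-06).

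The summed level of the striated muscle group differed among the kidney libraries. With chi-miR-133a-3p counted once it was 840.0, 729.7 and 1228 RPM in the 3 high-altitude libraries and 105, 336 and 314 RPM in the 3 low-altitude libraries. chi-miR-133a-3p was its most abundant miRNA in kidney, and 3 of the 11 were at 0 in all kidney libraries. The high-altitude values all lay above the low-altitude values, an order that was not tested. With both names of the pair counted, the mean sum was 1094 RPM in kidney, 1189 RPM in lung, 3050 RPM in spleen and 5304 RPM in liver. It was 273745 RPM in heart and 487827 RPM in muscle, so kidney was close to lung. The part of muscle RNA in the kidney results was not tested.

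**Figure D3:**
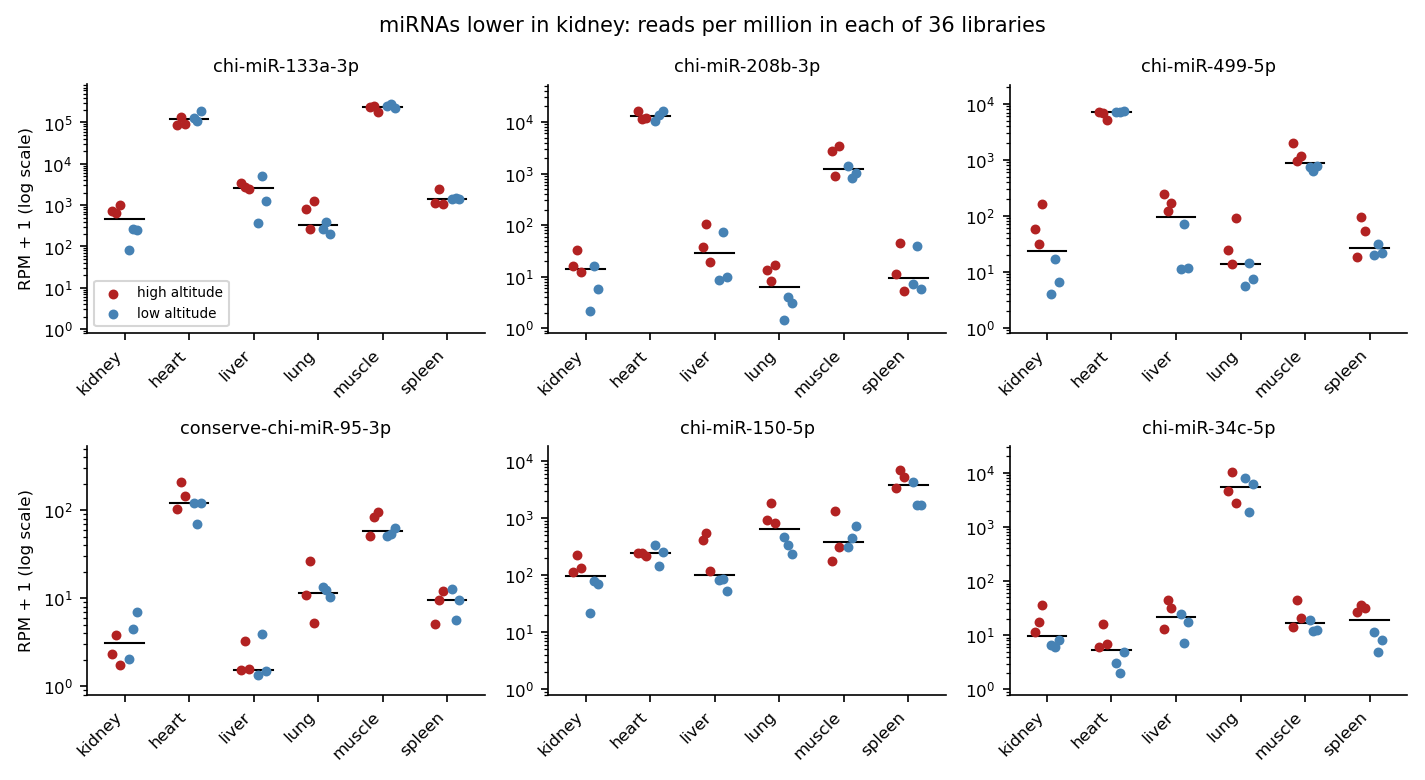
RPM plus 1 on a log scale for 6 miRNAs called lower in kidney, in each of the 36 libraries, with high-altitude libraries in red, low-altitude libraries in blue and a line at the median of each tissue. Kidney lies far below heart and muscle for chi-miR-133a-3p, chi-miR-208b-3p and chi-miR-499-5p, below spleen for chi-miR-150-5p and below lung for chi-miR-34c-5p.

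Of 8 tested miRNAs of ciliated cells, which in these tissues line the airways, 3 were lower in kidney, with a median log2 fold change of -1.29. chi-miR-34b-3p was at 0.0935, 0.234 and 0.622 RPM in kidney and at 42.7, 283 and 460 RPM in lung. Kidney and lung did not overlap, and the log2 fold change was -2.54 ± 0.53 (SE, edgeR adjusted p = 0.000566), a call that was lost in low-altitude goats alone (-2.18). chi-miR-34c-5p (-1.75) and chi-miR-34b-5p (-1.64) were lower as well, but both calls were lost without kidney high-altitude library 2 (-1.49 and -1.40) or low-altitude library 3 (-1.47 and -1.43), and that of chi-miR-34b-5p also without kidney high-altitude library 1 (-1.46) or low-altitude library 2 (-1.37). In high-altitude goats alone neither was called (-1.35 and -1.06), nor without high-altitude goat 2 and low-altitude goat 3 (-1.33 and -1.15). The group then had 1 of 7 lower, and 1 was lower in either population alone. chi-miR-449a-3p had its highest mean in lung, 808 RPM against 3.73 RPM in kidney, and was not called against the mean of all 5 tissues (-0.94). The summed level of the group ran from 7.19 to 41.2 RPM in kidney, chi-miR-34c-5p was its most abundant miRNA there, and 1 of the 8 was at 0 in all kidney libraries. The mean of the sum was 19.0 RPM in kidney and 7184 RPM in lung. It was 6.95 RPM in heart, 23.4 RPM in muscle, 30.5 RPM in spleen and 34.1 RPM in liver.

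Of 9 tested leukocyte miRNAs 1 was lower in kidney and none higher, with a median log2 fold change of -1.15, while DESeq2 called 3 lower and 2 were lower in high-altitude goats alone. The miRNA called by edgeR in all 6 goats was chi-miR-150-5p, known from mature lymphocytes, at 21.1, 95.8 and 222 RPM in kidney and 1690, 3879 and 6952 RPM in spleen. Kidney and spleen did not overlap, and the log2 fold change was -2.54 ± 0.33 (SE, edgeR adjusted p = 6.54e-07). conserve-chi-miR-142-5p (-1.15), known from all blood cells, chi-miR-155-5p (-0.22) and chi-miR-223-3p (-2.93), known from granulocytes, were not called, although chi-miR-223-3p was by DESeq2 (-3.08) and in high-altitude goats alone (-2.91). The group summed to 2658 to 5106 RPM in kidney and to a mean of 54631 RPM in spleen, conserve-chi-miR-142-5p was its most abundant miRNA in kidney, and none was at 0 in all kidney libraries. The erythroid group had 1 of 4 lower, 2 by DESeq2 and in low-altitude goats alone, and none in high-altitude goats alone. It summed to 89.6 to 758 RPM in kidney, with conserve-chi-miR-486-5p the most abundant and none at 0 in all kidney libraries. conserve-chi-miR-486-5p was at 0, 426 and 758 RPM in kidney and at 13738, 18535 and 42970 RPM in muscle, and its log2 fold change of -4.18 was not called (edgeR adjusted p = 0.0993). It was called by DESeq2 (-4.34), in low-altitude goats alone (-4.17) and without high-altitude goat 2 (-3.80).

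The summed level of liver RNA markers was lower in kidney than in liver, with means of 82.0 and 50679 RPM. The kidney mean was above those of heart (39.7 RPM), lung (42.5 RPM), muscle (47.5 RPM) and spleen (23.9 RPM). The hepatocyte group summed to 13.4 to 209 RPM in kidney, almost all of it chi-miR-122-5p, the main miRNA of hepatocytes, and none of its 4 miRNAs was at 0 in all kidney libraries. chi-miR-122-5p was at 12.9, 55.8 and 208 RPM in kidney and at 6118 to 179917 RPM in liver. Kidney overlapped with heart, lung, muscle and spleen, and against the mean of all 5 tissues edgeR called none of the 4 (median -1.40) and DESeq2 called 1 lower. The part of blood, liver, muscle or airway RNA in the kidney profile was not tested.

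The 2 miRNAs with the largest negative fold changes under the naming rule need care. chi-miR-107-3p was at 0 in 5 kidney libraries and at 426 RPM in low-altitude library 1, against 1891 to 3162 RPM in spleen. The log2 fold change of -8.73 ± 2.79 (edgeR adjusted p = 0.0291) lost its call without any 1 of the 5 kidney libraries at 0 (-8.60, -8.59, -8.60, -8.30 and -8.33, in the order of high-altitude libraries 1 to 3 and low-altitude libraries 2 and 3) with goat as a block (-7.07), with tissue alone (-2.50), in low-altitude goats alone (-1.42) and without any 1 of the 3 high-altitude goats or low-altitude goat 3 (-6.78 to -8.71), and when both arms of the precursor were summed it was 0.024. chi-let-7a-3p was at 8.60, 26.9 and 104 RPM in kidney and at 8.20, 8660 and 13532 RPM in lung. Its log2 fold change of -5.04 ± 1.41 (edgeR adjusted p = 0.0102) was -0.82 with both arms summed, and the call was also lost in high-altitude goats alone (-5.89), in low-altitude goats alone (-3.98) and without low-altitude goat 3 (-4.92). chi-let-7a-5p, the other arm, had 3.49 and was not called, but it was called by DESeq2 (6.14), without high-altitude goat 2 (7.12) and without this goat and low-altitude goat 3 (6.85). It was at 0 in 5 of 6 lung libraries while all 6 kidney libraries held it. Whether arm names were exchanged between libraries, for this precursor or for those of chi-miR-107-3p and chi-miR-30a-3p, was not tested.

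Several groups gave few or no calls against the mean of the other 5 tissues. Of 17 tested miRNAs of smooth muscle and mesenchyme none was called, with a median log2 fold change of 0.08 (-0.48 without high-altitude goat 2 and low-altitude goat 3, -0.34 by DESeq2 and 0.19 with chi-miR-10b-5p left out of the scaling) and a kidney sum of 68275 to 120609 RPM, led by chi-miR-143-3p, and 3 of the 17 were at 0 in all kidney libraries. That sum nonetheless lay below every lung library (161218 RPM or more) and every spleen library (363359 RPM or more) and above every muscle library (60998 RPM or less). The 2 endothelial miRNAs chi-miR-126-3p (-0.48) and chi-miR-126-5p (-0.29) were not called, and their kidney sum was 5204 to 13803 RPM, led by chi-miR-126-3p. Of 27 miRNAs of the miR-17-92 group, known from proliferating cells, none was called by edgeR with TMM scaling, while DESeq2 and edgeR with RLE size factors each called 1 lower, and the median was -0.25. Of 15 let-7 miRNAs, which mark differentiated cells, chi-let-7a-3p was the only call by edgeR, and neither population alone gave a call. DESeq2 called 1 higher and 1 lower, and the median was -0.11 (-0.28 by DESeq2 and 0.03 with library size alone). chi-let-7f-5p (-1.14), chi-let-7g-5p (-1.08) and chi-let-7d-5p (-1.23) had values under the minimum fold change. The hypoxia and fibrosis group had 1 of 9 higher, beside 10.1% of all miRNAs. It was a miRNA under 100 RPM in all tissues that was not called with goat as a block or in high-altitude goats alone. The median of the group was 0.14 (-0.01 by DESeq2 and 0.30 with goat as a block). chi-miR-21-5p (-0.19), raised in injury and fibrosis, chi-miR-29a-3p (-0.10) and chi-miR-29b-3p (0.37), known to lower collagens, were not called. For a miRNA that was not called, a value that misses the threshold does not show that kidney and the other tissues were alike.

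Only 2 of 1391 miRNAs (0.144%) were lower in kidney than in every other tissue, chi-miR-376b-3p and conserve-chi-miR-1976-3p, the latter named after its values were seen. Both were scarce. The call rests on fitted values, since the kidney mean of chi-miR-376b-3p, 6.05 RPM, was above its means in heart (5.48 RPM) and lung (5.54 RPM). conserve-chi-miR-1976-3p was at 0 in most kidney libraries and at most 0.187 RPM, under the limit of a count of 0. chi-miR-376b-3p was at 0 in 4 kidney libraries and at 27.6 and 8.71 RPM in high-altitude libraries 2 and 3. Its call against the mean of the 5 tissues was lost with goat as a block (-0.74), with tissue alone (-0.87) and in high-altitude goats alone (1.59). The count fell to 0 with goat as a block, without muscle low-altitude library 3, without kidney high-altitude library 3 or low-altitude library 2, and without any 1 of the 3 high-altitude goats. It was 1 without kidney high-altitude library 2, kidney low-altitude library 1, low-altitude goat 1 or low-altitude goat 2, and DESeq2 gave 8. Both calls were thus unstable, with few reads for conserve-chi-miR-1976-3p and counts of 0 beside 27.6 RPM in kidney for chi-miR-376b-3p. Better measured miRNAs were low in kidney without passing against all 5 tissues. chi-miR-16a-5p, a brake on the cell cycle named after its values were seen, was at 1456, 2604 and 6637 RPM in kidney, below all 6 spleen libraries at 6783 to 23206 RPM, and was lower by -1.51 ± 0.24 (SE, edgeR adjusted p = 2.21e-05).

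A tissue specificity index (TSI), which is 0 for equal levels in all tissues and 1 for a miRNA found in a single tissue, was computed on tissue means and gives a description without a test. With the value of 0.85 used in the study's methods as the limit, 63 miRNAs were above it with kidney highest, against 189 for liver, 162 for spleen, 129 for lung, 94 for muscle and 79 for heart. Only 8 of the 63 reached 100 RPM in kidney and 33 stayed under 1 RPM, and 32 were called higher. Among those with at least 1 RPM in a tissue 30 of them were left. chi-miR-200a-3p had an index of 0.907, chi-miR-10b-5p 0.901, chi-miR-424-5p 0.897, chi-miR-450-5p 0.895, chi-miR-196b-5p 0.882 and chi-miR-542-3p 0.863. chi-miR-204-5p (0.813) and chi-miR-429-3p (0.820) were under the limit, with liver and lung close to kidney.

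Whether the kidney contrast differed between the populations was tested as an interaction, and 1 of 1391 miRNAs (0.0719%) was called by edgeR, with 27 at an unadjusted p under 0.05 and 5 called by DESeq2. The miRNA was chi-miR-376b-3p, with a log2 difference of 11.66 as high minus low altitude (edgeR adjusted p = 0.0111). It was at 0, 27.6 and 8.71 RPM in the high-altitude kidneys and at 0 in the 3 low-altitude kidneys, so this value depends on reads in a pair of libraries. Without kidney high-altitude library 2, low-altitude library 1 or low-altitude library 2 no miRNA was called, and without low-altitude library 3 there were 2.

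Within kidney, high against low altitude gave 0 calls of 768 miRNAs tested (0%) in edgeR, with 65 at an unadjusted p under 0.05 and 29 called by DESeq2. The kidney markers stood at 396285, 213546 and 397941 RPM at high and 401762, 313092 and 164936 RPM at low altitude for chi-miR-10b-5p. For chi-miR-200a-3p they were 754, 1564 and 653 RPM at high and 972, 1269 and 3777 RPM at low altitude. Both sets overlapped, with log2 differences of 0.16 ± 0.80 and -0.88 ± 0.38. chi-miR-133a-3p was at 740, 656 and 1026 RPM at high and 79.9, 267 and 243 RPM at low altitude, without overlap, and its log2 difference of 2.38 ± 0.52 was not called (edgeR adjusted p = 0.372). chi-miR-504-5p, at 183, 462 and 146 RPM against 32.0, 108 and 122 RPM, had 1.67 ± 0.38 (edgeR adjusted p = 0.372), and chi-miR-150-5p had 1.63 ± 0.38 (edgeR adjusted p = 0.391). Both had every high-altitude value above every low-altitude value. The reverse held for chi-miR-200c-3p, at 14.2, 25.6 and 15.8 RPM at high and 57.3, 112 and 130 RPM at low altitude, with -2.33 ± 0.34 (edgeR adjusted p = 0.263). chi-miR-409-5p, described above, had -5.01 (edgeR adjusted p = 0.391). The share of the 768 tested miRNAs whose values did not overlap was not counted, so no altitude effect is read from these orders. With 3 goats a group, an adjusted p that misses the threshold does not show that the populations were alike.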

How the data were processed

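Small RNA was sequenced from 6 tissues of 6 goats. The authors called bases with CASAVA 1.8, filtered reads, mapped them to the goat genome with Bowtie and quantified mature miRNAs with miRDeep2, and the deposited values are counts of reads per mature miRNA for each library, without normalization. A miRNA was tested when at least 1 library held 3 or more reads.

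Counts were scaled by TMM and fitted with a mean for each tissue and altitude by the quasi-likelihood test of edgeR 4.0.16 (limma 3.58.1, R 4.3.3, prior count 0.125). DESeq2 1.42.0 was the second tool. Tables and figures used Python 3.11.15, NumPy 2.4.6, SciPy 1.17.1, pandas 2.3.3 and matplotlib 3.10.9. Adjusted p values follow Benjamini and Hochberg over all miRNAs tested. Kidney is set against the mean of the other 5 tissues and against each of them. The SE of a fold change comes from the quasi-likelihood fit and includes the spread among libraries of a group. The limit of 3 counts covers counting error only.

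The study sampled every tissue from each goat, and the goat of each library was taken from the replicate number in its sample title. That this number names the same goat in every tissue is an assumption. As a check, residuals of kidney and another tissue of the same goat correlated at a mean of 0.122, against -0.0579 for other goats, across miRNAs, which are not independent replicates. The mean was negative in low-altitude goats 2 (-0.0484) and 3 (-0.0248), and 16 of 30 pairs were above 0.1. Goat as a block was used as an alternative. The procedure was tested on simulated data with known kidney changes. The simulation pooled rises with falls and gave all the other tissues the same mean, unlike the data. It cannot tell how reliable rises at low counts are, and counts are also given by level.

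Named miRNAs are chi-miR-10b-5p and chi-miR-200a-3p, the 12 largest fold changes among those called higher with a kidney mean of at least 100 RPM and reads in all 6 kidney libraries, the 12 largest negative fold changes among those called lower with at least 100 RPM in the highest tissue and reads in all 6 of its libraries, the 10 highest means in kidney, and members of the groups with at least 100 RPM in any tissue. For altitude, called miRNAs and values of those named were given. The comparisons, members and groups were chosen with earlier results of these data known. Of the miRNAs tested, 104 shared identical counts with another, and they were kept as listed. No sequences are printed because no sequence table was available. The RefSeq table of assembly ARS1.2 was used only for gene names and neighbors, while the counts were made on ARS1, and 225 of 909 precursor names matched it.

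Alternatives were scaling by RLE, by library size alone and by TMM without chi-miR-10b-5p, DESeq2, goat as a block, tissue alone, each population alone, both arms summed, other filters and minimum fold changes, and leaving out each kidney library or goat. Leaving out muscle low-altitude library 3, leaving out high-altitude goat 2 with low-altitude goat 3, and leaving out miRNAs with 0 and at least 100 counts within a group were chosen after seeing the data.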

Additional observations from a re-analysis of the deposited data

Results flagged for a closer look

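In 24 groups of 6 kidney libraries, 3 had a highest value whose distance to the next was over 0.625 of the range of the group, and chance flags about 1 in 20 groups. chi-miR-200a-3p reached 3777 RPM in kidney low-altitude library 3, chi-miR-30c-5p reached 4209 RPM in kidney low-altitude library 2, and chi-miR-504-5p reached 462 RPM in kidney high-altitude library 2. For chi-miR-376b-3p the kidney contrast differed between the populations in a test of the difference itself, by 11.66 on the log2 scale as high minus low altitude, from reads in 2 of 6 kidney libraries.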

How the results depend on the processing

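Of 335 alternatives to 20 counts, 282 were within 1.5 times the reported count. Of 51 named miRNAs that were called, 28 kept their call in every alternative run.

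Against the other 5 tissues, miRNAs higher in kidney numbered 88 in high-altitude goats alone and 90 with arms summed. Those lower numbered 65 by DESeq2, 18 in either population alone, 19 with arms summed, 61 without a minimum fold change and 51 with a minimum log2 fold change of 1.

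Library size alone gave 44 lower than in heart, 48 higher than in liver, 61 higher than in lung, 143 higher and 47 lower than in muscle, and 77 higher than in spleen. DESeq2 gave 81 lower than in liver, 104 lower than in lung and 101 lower than in spleen. Without high-altitude goat 2 and low-altitude goat 3, an alternative chosen after seeing the data, 37 were lower than in lung.

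The count below all 5 tissues was 1 with chi-miR-10b-5p left out of the scaling, 8 by DESeq2 and 0 without muscle low-altitude library 3. With goat as a block it was 0, and the block moved no other count past 1.5 times. The block ended the calls of 4 named miRNAs, among them chi-miR-107-3p (-7.07), and gave chi-miR-206-3p a call (-2.92).

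Leaving out 1 kidney library or 1 goat at a time gave 6 to 18 above all 5 tissues, 0 to 2 below all 5, 46 to 83 higher and 30 to 39 lower than in liver, 63 to 97 higher and 38 to 51 lower than in lung, 34 to 59 lower than in spleen, and 0 to 2 for the difference of the kidney contrast between populations. DESeq2 gave 5 for that difference and 29 for altitude within kidney. Specific miRNAs by the index numbered 30 with a mean of at least 1 RPM.

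For 4 named miRNAs the direction turned with a call on at least 1 side, and a further 25 that were not called had values on both sides of 0. With arms summed, chi-miR-107-3p stood at 0.024 and chi-miR-30a-3p at 2.09. In high-altitude goats alone chi-miR-376b-3p stood at 1.59. chi-miR-200b-3p ran from -3.39 to 4.91 over the fits without 1 library or goat, and was -9.56 without high-altitude goat 2 and low-altitude goat 3.

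Each population had 3 goats, and breed and altitude cannot be told apart. The tissues were bulk samples, so cell composition was not measured. The fold changes depend on the scaling, most of all against muscle. Counts of 0 beside large counts within a group occurred for 176 miRNAs, and their cause was not tested.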

Other observations

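Some groups of neighboring genes on the RefSeq table held several enriched miRNAs. Of the 141 miRNAs higher in kidney 71 lay in 9 groups with more than 1 of them, and these groups held 113 tested miRNAs. These 9 groups were selected by their calls. Over all 28 groups of at least 3 tested miRNAs, 72 of 197 were higher. Of all tested miRNAs 413 could be placed, and clustering itself was not tested. All 5 tested miRNAs of the chi-mir-200a, chi-mir-200b and chi-mir-429 genes, between TTLL10 and C16H1orf159, were higher in kidney, with a median log2 fold change of 4.94. Among them chi-miR-200b-3p lost its call in 7 of 23 alternatives, with a negative value in 5. All 4 of the chi-mir-141 and chi-mir-200c genes, between PHB2 and PTPN6, were higher too, with a median of 3.32, although lung held more of them. The genes of chi-mir-424, chi-mir-450 and chi-mir-542 had 5 of 6 higher with a median of 3.34, and a group in and beside RTL1, which holds chi-mir-127, chi-mir-136, chi-mir-432, chi-mir-493 and chi-mir-665, had 6 of 10 higher with a median of 1.88. Of the 4 tested miRNAs of chi-mir-34b and chi-mir-34c, 3 were lower, with a median of -1.69.

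A group within CLCN5, a chloride transporter gene of the proximal tubule, had 4 of 10 miRNAs higher, with a median log2 fold change of 1.26. chi-miR-362-5p and chi-miR-500-3p were chosen from it after their values were seen. chi-miR-362-5p was at 50.0, 98.1 and 271 RPM in kidney and was higher by 2.02 ± 0.30, with muscle next. chi-miR-500-3p was at 411, 599 and 1191 RPM in kidney and was higher by 1.61 ± 0.34 against the other 5 tissues, while against muscle it was lower by a log2 fold change of -2.44.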
